A study of Danio rerio with 15 samples.

Results

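The 7 mRNAs described here encode the subunits of respiratory complex I that zebrafish make from their mitochondrial genome: mt-nd1, mt-nd2, mt-nd3, mt-nd4l, mt-nd4, mt-nd5 and mt-nd6. They were found by transcript ID (ENSDART00000093596, ENSDART00000093600, ENSDART00000093615, ENSDART00000093617, ENSDART00000093618, ENSDART00000093622 and ENSDART00000093623, in the same order) among 57775 transcripts in each library, and none was lost. All 7 had the length that RefSeq gives for the mitochondrial gene of that name, from 297 bases for mt-nd4l to 1821 bases for mt-nd5. Each library came from the skeletal muscle of 1 female fish. The 4 groups were scaf1+/+ on standard diet (n = 4), scaf1-/- on standard diet (n = 4), scaf1+/+ on double diet (n = 3) and scaf1-/- on double diet (n = 4). The scaf1-/- fish were homozygous for the Δ1 allele, a single CRISPR/Cas9 null line, and the scaf1+/+ fish came from its wild-type sibling line in the AB background. All fish were 7 months old when the diets began and ate them for 6 weeks. On double diet the weekday amount of dry food was doubled and spread over more feeds. The labels give 5 feeds a day against 3 in standard diet, which by the methods holds for weekdays. By the methods 1 weekday feed of both diets was artemia and not dry food. At weekends both diets had fewer feeds, and double diet again had more dry food in more feeds. The labels give 13 fish per 2 l tank, and the methods give fewer, of mixed sex. Fish of different tanks were not told apart in the labels.

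Complex I is the entry point of electrons from NADH into the respiratory chain, and it pumps protons across the inner mitochondrial membrane as it passes them to ubiquinone. Its membrane arm has a core that vertebrates still encode in the mitochondrial genome, while the other subunits come from the nucleus and are imported. The mitochondrial genome is transcribed from both strands as long precursors, which are then cut into single mRNAs, mostly at the tRNAs that lie between them. Scaf1 is a nuclear-encoded factor that joins complexes III and IV, and in skeletal muscle complex I is found both alone and bound to those 2 complexes. The mRNA levels below say nothing of the assembled complexes, which were not measured in these libraries.

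Levels are given in CPM, the estimated count of a transcript per 1000000 counts of its library. The 14 libraries other than scaf1+/+ standard diet replicate C held 11671548 to 15844709 counts. That replicate held 4045429, and it had 15536 transcripts with at least 1 count against 27425 to 35458 in the others. It stood apart in several complex I mRNAs too, so results that rest on it are given with and without it. The 7 mRNAs were abundant enough that counting error was small beside the spread between fish: the smallest count was 134, for mt-nd4l in that library, where the 95% Wilson interval was 28.0 to 39.2 CPM, and the median half-width over all values was 1.30% of the value. Such intervals cover counting error only. The estimated counts of all 7 were exact whole numbers in 15 of 15 libraries. Whether the muscle label fits its marker genes was not checked, because no transcript was paired with a nuclear gene. In muscle RNA taken in bulk, fewer cells of a type and less RNA per cell cannot be told apart.

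Together the 7 mRNAs made up 0.949% to 2.57% of a library's counts. The group means were 1.30% ± 0.30 (SD, n = 4) in scaf1+/+ standard diet, 1.56% ± 0.27 (SD, n = 4) in scaf1-/- standard diet, 1.66% ± 0.55 (SD, n = 3) in scaf1+/+ double diet and 1.84% ± 0.59 (SD, n = 4) in scaf1-/- double diet. The fish of the groups overlapped: the lowest scaf1-/- double diet fish, at 1.31%, lay below the highest scaf1+/+ standard diet fish, at 1.68%, which was replicate C. All 13 mitochondrially encoded mRNAs took 5.08% to 14.0% of the counts, and the complex I mRNAs were 12.6% to 20.5% of that. The rest of it came from the mRNAs of complexes III, IV and V. One of these, mt-atp8, had no count in any fish, and it was the shortest, with an effective length of 15.4 bases.

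mt-nd4, which encodes a proton-pumping subunit of the membrane arm, held the most counts of the 7 in 14 of 15 fish. It ranked 21st of all transcripts in the highest fish and 55th in the lowest. mt-nd1 and mt-nd2, a subunit at the junction with the peripheral arm and a second proton-pumping subunit, had counts within a ratio of 0.851 to 1.18 of each other in 14 of 15 fish. mt-nd4l, the smallest of the genes, ranked 312th to 1709th.

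Comparing genes calls for a level per length. In TPM, which divides by effective length (the positions at which a fragment can start), mt-nd3 was highest with a median of 5312 TPM over the 15 fish and mt-nd4 next with 3854. Then came mt-nd1 with 3640 TPM, mt-nd2 with 3626, mt-nd6 with 3232, mt-nd4l with 1680 and mt-nd5 with 1113. No pair of neighbours kept that order in every fish: mt-nd3 lay above mt-nd4 in 13 of 15 fish, mt-nd4 above mt-nd1 in 9, mt-nd1 above mt-nd2 in 12, mt-nd2 above mt-nd6 in 11, mt-nd6 above mt-nd4l in 12 and mt-nd4l above mt-nd5 in 14. The ranges of each pair of neighbours overlapped.

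The first and last places depend on how length enters. The effective length was 152 of 351 bases for mt-nd3 and 98.1 of 297 for mt-nd4l, so the short genes gain most from it. Divided by full length instead, mt-nd4 was first with a median of 3121 CPM per kilobase, followed by mt-nd1 with 2995 and mt-nd2 with 2757. Next were mt-nd3 with 2434, mt-nd6 with 1920 and mt-nd5 with 1150. mt-nd4l came last with 610, below mt-nd5 in 15 of 15 fish. Levels of mt-nd3 and mt-nd4l set against the other genes therefore carry this uncertainty. The choice of length does not change a ratio of CPM of 1 gene between fish, since all libraries were given the same effective lengths. These lengths do not follow the fragment sizes of a single library. Whether fragment size or RNA quality differed between fish, which could shift the short genes, was not tested.

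**Figure D1:**
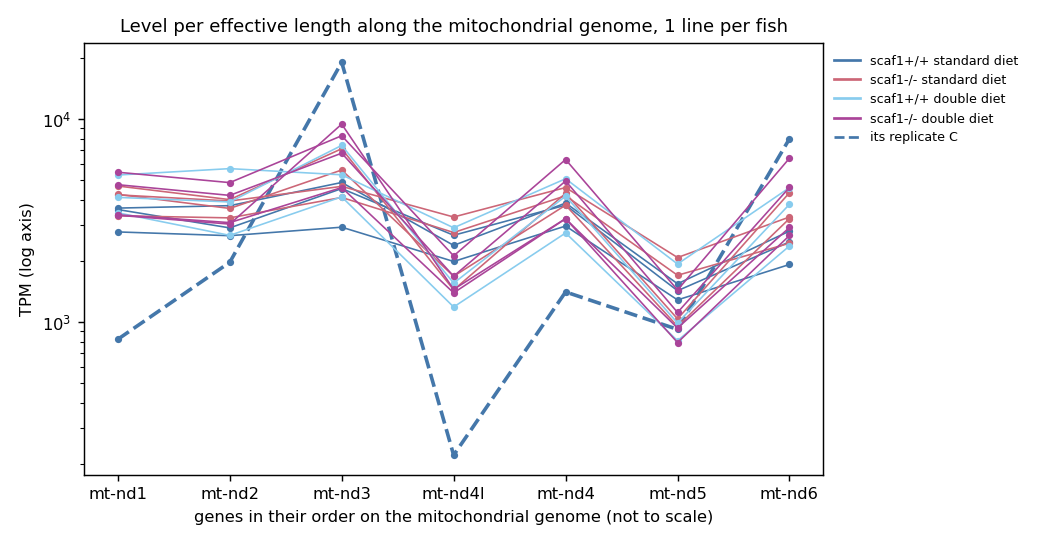
TPM (log axis) of the 7 complex I mRNAs in the order of their genes on the mitochondrial genome, with 1 line per fish coloured by group. The other 14 fish trace a similar profile with mt-nd3 high and mt-nd5 low, and scaf1+/+ standard diet replicate C (dashed) is lowest at mt-nd1, mt-nd2, mt-nd4l and mt-nd4 and highest at mt-nd3 and mt-nd6.

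On standard diet, the comparison of scaf1-/- with scaf1+/+ fish asks whether complex I mRNAs differ in muscle that lacks Scaf1. mt-nd1 measured 1816, 2365, 2692 and 977 CPM in scaf1+/+ replicates 6, 7, B and C. In scaf1-/- replicates 6, A, B and C it measured 2115, 2983, 4137 and 3632 CPM. The scaf1-/- fish were higher as a group, but their lowest fell within the scaf1+/+ range. The means were 1963 ± 750 (SD, n = 4) and 3217 ± 873 CPM (SD, n = 4), a ratio of 1.64. In the fit over all transcripts by the edgeR quasi-likelihood test, mt-nd1 was 1.32 ± 0.59 (SE) higher on the log2 scale, with a Benjamini-Hochberg adjusted p = 0.846. Its unadjusted p was under 0.05 in this fit. It was not in edgeR with a replicate block, median-ratio scaling, library totals alone or only the 2 groups, nor by limma, nor without any 1 of scaf1-/- replicates B and C and scaf1+/+ replicates 6 and 7. The TMM factors of those 4 fish were 0.630, 0.590, 1.74 and 1.72.

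The other subunits of the membrane arm gave smaller or mixed differences. mt-nd2 was 1902, 2657, 2388 and 2559 CPM in the scaf1+/+ fish (6, 7, B and C) against 2258, 3039, 3873 and 3384 CPM in the scaf1-/- fish (6, A, B and C). mt-nd4 was 2958, 3815, 4310 and 2547 CPM in scaf1+/+ fish against 4046, 4937, 5799 and 4894 CPM in scaf1-/- fish. In both genes 3 of 4 scaf1-/- fish lay above every scaf1+/+ fish, and replicate 6 lay within their range. The edgeR log2 differences were 0.75 ± 0.63 (SE) for mt-nd2 and 0.96 ± 0.59 (SE) for mt-nd4, with adjusted p = 0.926 and 0.918. mt-nd5, the longest of the genes and another of the proton-pumping subunits, was 1754, 2093, 2239 and 2285 CPM in scaf1+/+ fish and 2250, 3060, 1913 and 1698 CPM in scaf1-/- fish. Its group means, 2093 ± 240 and 2230 ± 598 CPM (SD, n = 4 each), differed by less than the spread between fish. mt-nd4l, which encodes a small subunit beside these pumps, was 164, 196, 254 and 33.1 CPM in scaf1+/+ fish and 221, 293, 161 and 181 CPM in scaf1-/- fish, again overlapping.

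mt-nd3 and mt-nd6 were the 2 genes with a lower mean in scaf1-/- fish, and 1 library set that direction. mt-nd3, whose product lies where the membrane arm meets the peripheral arm, was 375, 620 and 669 CPM in scaf1+/+ replicates 6, 7 and B but 4444 CPM in replicate C. The scaf1-/- fish had 510, 643, 1238 and 938 CPM. mt-nd6, the one mRNA of the group encoded on the other strand, was 517, 751 and 769 CPM in scaf1+/+ replicates 6, 7 and B and 3930 CPM in replicate C, with 639, 956, 1581 and 1138 CPM in the scaf1-/- fish. Without replicate C the scaf1+/+ means were 555 ± 157 CPM for mt-nd3 and 679 ± 140 CPM for mt-nd6 (SD, n = 3), below the scaf1-/- means of 832 ± 324 and 1079 ± 394 CPM (SD, n = 4). The edgeR log2 difference went from -1.05 ± 0.98 (SE) to 1.49 ± 0.65 for mt-nd3 and from -0.59 ± 0.93 to 1.56 ± 0.69 for mt-nd6.

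**Figure D2:**
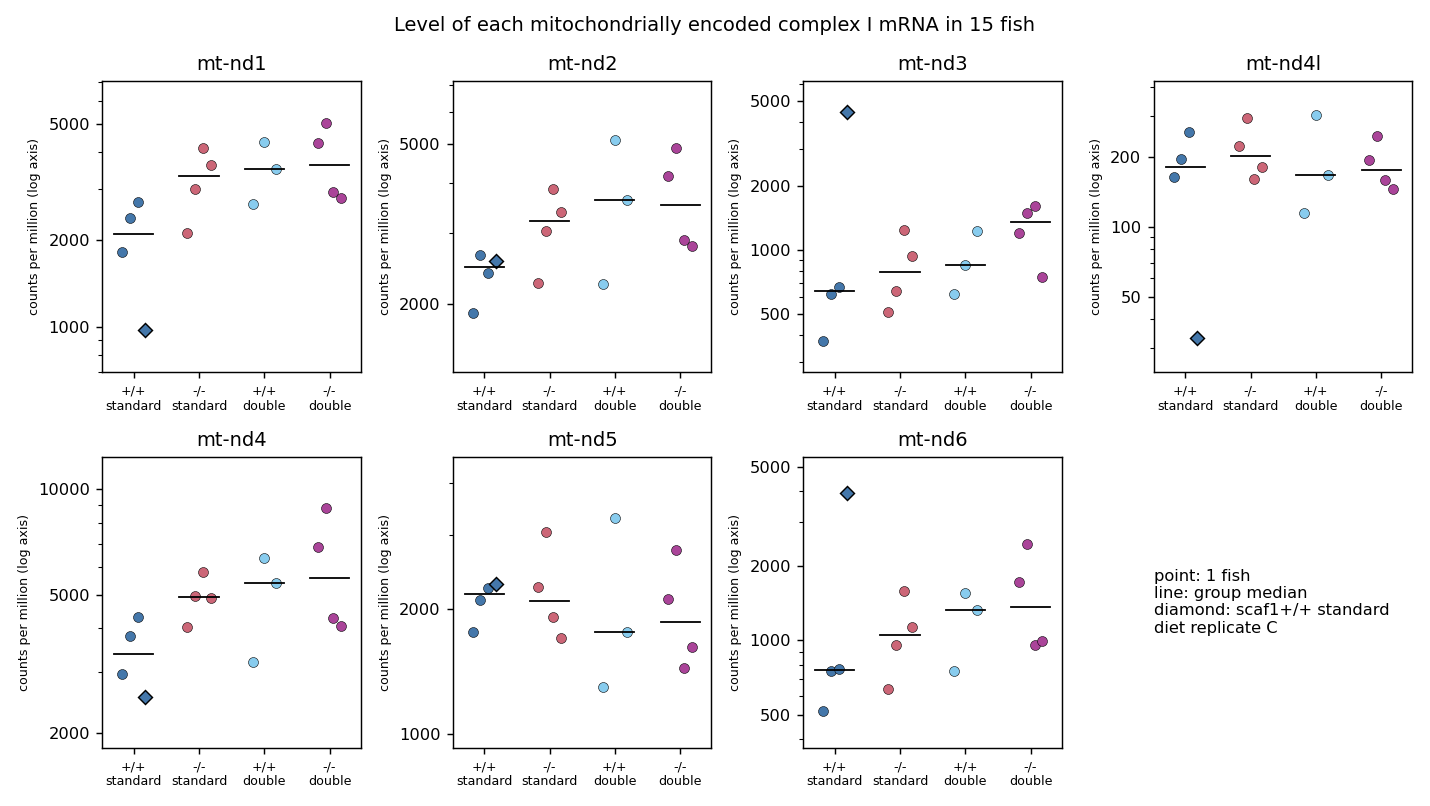
CPM (log axis) of each complex I mRNA in each of the 15 fish, by genotype and diet, with a line at the group median. scaf1+/+ standard diet replicate C (diamond) is far above its group in mt-nd3 (4444 CPM) and mt-nd6 (3930 CPM) and far below it in mt-nd1 (977 CPM) and mt-nd4l (33.1 CPM). In every gene the groups overlap in each comparison of genotype within a diet and of diet within a genotype. In mt-nd1 and mt-nd2 the lowest scaf1-/- double diet fish (2790 and 2791 CPM) is narrowly above the highest scaf1+/+ standard diet fish (2692 and 2657 CPM). That pair of groups differs in both genotype and diet and was not tested. How many of all transcripts part these groups was not counted, so no result is read from it.

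Over the 7 mRNAs, edgeR called 0 of 7 at an adjusted p under 0.05 with a log2 difference over 1, where it called 0% of the 26970 transcripts tested. At an unadjusted p under 0.05 it had 1 of 7 (mt-nd1), and the share over all transcripts was 5.9%. DESeq2 called 0 of 7 and 0.108% of all transcripts. The fitted difference was higher for 5 of 7 in scaf1-/- fish, with a median log2 difference of 0.75 beside -0.09 over all transcripts tested. The 5 other mitochondrial mRNAs that were tested had a median of 0.37, and without scaf1+/+ replicate C their median was 1.35 and that of the 7 was 1.30. Without that library, 7 of 7 were higher in the TMM-scaled fit, from 0.68 for mt-nd4l to 1.56 for mt-nd6. The log2 ratios of mean CPM, which use no TMM factor, were smaller without it. They ran from 0.065 for mt-nd4l and 0.137 for mt-nd5 to 0.667 for mt-nd6. In the TMM-scaled fit without it, 3 of 7 (mt-nd1, mt-nd3 and mt-nd6) had an unadjusted edgeR p under 0.05. Of all transcripts, 2361 of 26862 did. The edgeR adjusted p of these 3 was still 0.536 to 0.584. Leaving out 1 library at a time moved the median of the 7 between 0.44 (without scaf1-/- replicate B) and 1.30, and it was 0.49 without scaf1+/+ replicate 6. The size of these differences also rests on the scaling. The TMM factors that edgeR applies ran from 0.570 in scaf1+/+ replicate C to 1.74 in scaf1+/+ replicate 6. Scaled by library totals alone, the median of all transcripts moved to -0.39 and that of the 7 mRNAs to 0.40.

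The replicate marks 6, B and C occur in both genotypes on standard diet. Correlations between fish did not single out fish of the same mark, so the counts below are description only. mt-nd1, mt-nd2 and mt-nd4 were higher in the scaf1-/- fish in 3 of 3 of these pairs, in CPM. mt-nd3, mt-nd4l and mt-nd6 were so in 2 of 3, and mt-nd5 in 1 of 3.

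On double diet, the same comparison asks whether the genotypes differ once the fish are given more food in more feeds. mt-nd4 was 3210, 6351 and 5396 CPM in scaf1+/+ replicates 2, 3 and 4. In scaf1-/- replicates 2, 3, 6 and 7 it was 6836, 8863, 4282 and 4066 CPM. Replicates 2 and 3 of scaf1-/- lay above every scaf1+/+ fish and the other 2 within their range. mt-nd1 was 2649, 4350 and 3493 CPM in scaf1+/+ fish and 4303, 5037, 2921 and 2790 CPM in scaf1-/- fish. mt-nd6 was 750, 1555 and 1332 CPM in scaf1+/+ fish and 1721, 2437, 957 and 997 CPM in scaf1-/- fish. In all 3 genes the same 2 scaf1-/- fish, replicates 2 and 3, were the high ones. mt-nd3 was 622, 854 and 1234 CPM in scaf1+/+ fish and 1206, 1493, 1610 and 745 CPM in scaf1-/- fish, where replicate 6 was the highest.

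The remaining genes, like mt-nd1, had nearly equal means in both genotypes on double diet. mt-nd2 was 2241, 5112 and 3623 CPM in scaf1+/+ fish and 4165, 4892, 2887 and 2791 CPM in scaf1-/- fish, a ratio of means of 1.01. mt-nd5 was 1296, 3310 and 1753 CPM in scaf1+/+ fish and 2109, 2765, 1438 and 1613 CPM in scaf1-/- fish, a ratio of 0.935. mt-nd4l was 115, 302 and 167 CPM in scaf1+/+ fish and 192, 246, 159 and 145 CPM in scaf1-/- fish, a ratio of 0.955. In mt-nd2, mt-nd5 and mt-nd4l, scaf1+/+ replicate 3 was the highest and replicate 2 the lowest of the 7 fish.

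By edgeR, 0 of 7 were called in this comparison, beside 0% of all transcripts, and 0 of 7 had an unadjusted p under 0.05, beside 5.05% of all transcripts. DESeq2 called 0 of 7 and 0.23% of all. The fitted log2 differences of the 7 mRNAs ran from 0.29 ± 0.62 (SE) for mt-nd5 to 0.85 ± 1.07 for mt-nd3, with edgeR adjusted p of 0.954 to 0.957. The median was 0.53, beside -0.09 over all transcripts and 0.72 over the 5 other mitochondrial mRNAs. It was 0.21 without scaf1+/+ replicate 2, 0.94 without scaf1+/+ replicate 3, 0.32 without scaf1-/- replicate 2 and 1.11 with a replicate block. All 7 were positive in the TMM-scaled fit. Scaled by library totals alone, mt-nd4l (-0.07) and mt-nd5 (-0.10) turned negative, and the median was 0.10 while that of all transcripts was -0.53.

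**Figure D3:**
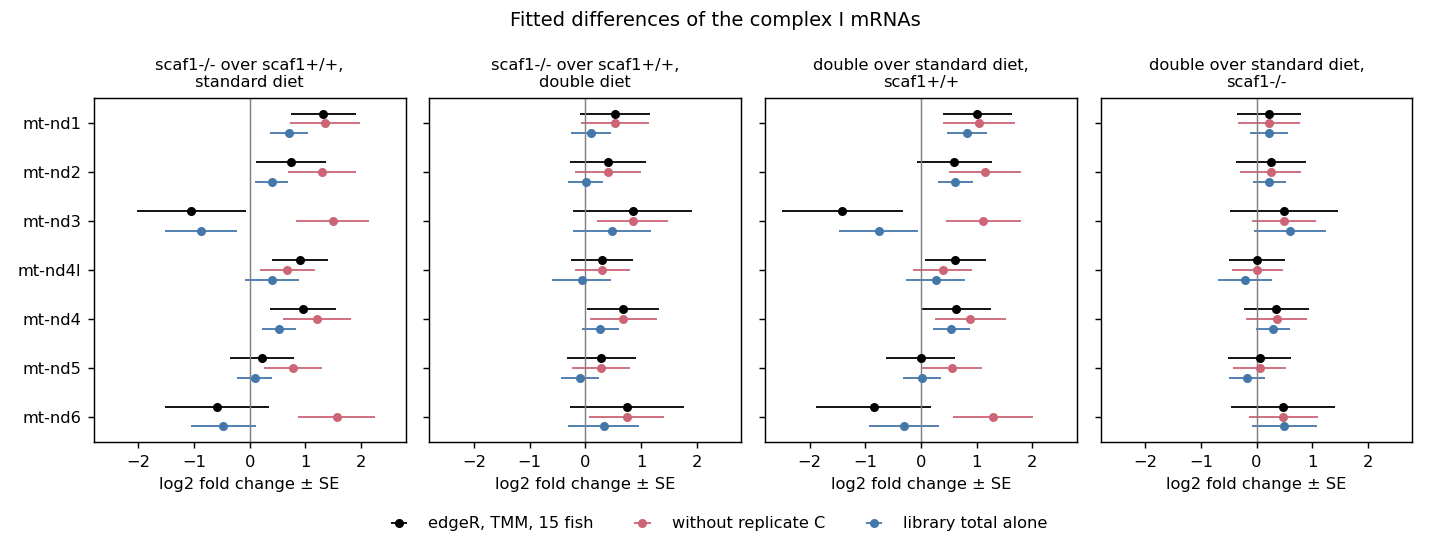
Log2 fold change ± SE of each complex I mRNA in the 4 comparisons, from edgeR with TMM scaling over 15 fish (black), without scaf1+/+ standard diet replicate C (red), and scaled by library totals alone (blue). Both comparisons with standard diet scaf1+/+ fish move with that library in mt-nd3 (-1.05 to 1.49 for genotype, -1.41 to 1.12 for diet) and mt-nd6, and no value passed the adjusted threshold.

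In scaf1+/+ fish, the comparison of double with standard diet asks what more food in more feeds does without the mutation. It shares the standard diet scaf1+/+ fish with the first genotype comparison, so the values of both move with those fish. mt-nd1 had a mean of 1963 CPM on standard and 3497 CPM on double diet, a ratio of 1.78, and mt-nd4 had 3407 and 4986 CPM, a ratio of 1.46. The double diet fish overlapped the standard diet fish in both, since replicate 2, the lowest double diet fish, had 2649 CPM of mt-nd1 and 3210 CPM of mt-nd4. mt-nd2 had a ratio of 1.54 and mt-nd5 of 1.01. For mt-nd3 the ratio was 0.592, and without replicate C of standard diet it was 1.63. For mt-nd6 it was 0.813, and 1.79 without that library. For mt-nd4l it was 1.20, and 0.951 without that library.

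By edgeR, 0 of 7 were called, beside 0% of all transcripts, and 0 of 7 had an unadjusted p under 0.05, beside 3.9% of all. Scaled by library totals alone, 1 of 7 (mt-nd1) did, where 860 of 26970 transcripts did. DESeq2 called 0 of 7 and 0.0868% of all. The log2 differences were 1.02 ± 0.62 (SE) for mt-nd1, 0.60 ± 0.67 for mt-nd2 and 0.64 ± 0.63 for mt-nd4. They were 0.62 ± 0.54 for mt-nd4l, -0.01 ± 0.62 for mt-nd5, -0.85 ± 1.03 for mt-nd6 and -1.41 ± 1.09 for mt-nd3, each with an edgeR adjusted p of 1. In the TMM-scaled fit 4 of 7 were positive with all fish. Without replicate C of standard diet 7 of 7 were, from 0.39 for mt-nd4l to 1.30 for mt-nd6, at edgeR adjusted p of 0.964 to 0.965. The log2 ratios of mean CPM without that library ran from -0.073 for mt-nd4l and 0.063 for mt-nd5 to 0.836 for mt-nd6. The median of the 7 was 0.60 with that library and 1.05 without it. It was 1.03 without double diet replicate 2 and 0.0017 without double diet replicate 3. With a replicate block it was -0.10, although no mark occurs in scaf1+/+ fish of both diets.

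In scaf1-/- fish, double diet against standard diet gave ratios of mean CPM of 1.17 for mt-nd1, 1.17 for mt-nd2 and 1.22 for mt-nd4. mt-nd3 and mt-nd6 had ratios of 1.52 and 1.42, and mt-nd4l and mt-nd5 ratios below 1, at 0.868 and 0.888. Every gene overlapped between the diets. For mt-nd1, for example, the double diet fish spanned 2790 to 5037 CPM and the standard diet fish 2115 to 4137 CPM. By edgeR 0 of 7 were called, beside 0% of all transcripts, and 0 of 7 had an unadjusted p under 0.05, beside 5.69% of all. DESeq2 called 0 of 7 and 0.304% of all. The log2 differences ran from 0.01 ± 0.51 (SE) for mt-nd4l to 0.49 ± 0.97 for mt-nd3, each with an edgeR adjusted p of 1, and their median was 0.25 beside -0.10 over all transcripts. Without 1 library that median was 0.0048 (standard diet replicate 6), 0.15 (A), 0.57 (B) or 0.50 (C), and 0.05, 0.12 or 0.45 without double diet replicate 2, 3 or 6. Scaled by library totals alone, mt-nd4l (-0.21) and mt-nd5 (-0.17) were negative.

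Whether the diet acted differently in the 2 genotypes was tested as an interaction in edgeR. It called 0 of 7, beside 0% of all transcripts, with 0 of 7 at an unadjusted p under 0.05, beside 3.87% of all. DESeq2 called 0 of 7 and 0.0827% of all. The median interaction of the 7 mRNAs was -0.28 on the log2 scale. A negative value means that the change from standard to double diet, with its sign, was lower in scaf1-/- than in scaf1+/+ fish. The interaction was positive for 3 of 7, and for 0 of 7 without scaf1+/+ standard diet replicate C. The sign of that median turned with the setting. Without scaf1+/+ standard diet replicate C it was -0.64 and without scaf1+/+ double diet replicate 2 it was -0.65, but it was 0.19 without scaf1+/+ double diet replicate 3, 0.016 without scaf1-/- standard diet replicate B and 0.54 with a replicate block. The 5 other mitochondrial mRNAs had a median of 0.42 with all fish. Without scaf1+/+ standard diet replicate C their median was -0.60, near that of the 7, and 0 of 5 were positive. In the comparisons of CPM, groups overlapped for 7 of 7 mRNAs in each of the 4 contrasts. Among all transcripts tested, groups did not overlap for 0.682% higher and 0.467% lower in scaf1-/- fish on standard diet, for 2.24% higher and 9.83% lower in scaf1-/- fish on double diet, for 2.04% higher and 1.16% lower with double diet in scaf1+/+ fish and for 1.71% higher and 2.55% lower with double diet in scaf1-/- fish.

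Single fish of 1 group often lay further apart than the group means. Over all 15 fish the coefficient of variation of CPM was 35.1% for mt-nd1, 30.6% for mt-nd2, 34.2% for mt-nd4, 27.4% for mt-nd5 and 36.6% for mt-nd4l. The median over the 2475 other transcripts with at least 10 CPM in every fish was 36.6%. mt-nd3 at 85.8% and mt-nd6 at 65.8% varied more, and without scaf1+/+ standard diet replicate C they were at 42.0% and 45.7%, beside a median of 32.9%. mt-nd6 was thus more variable than 78.7% of those transcripts even without that library.

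Shares within a fish compare the 7 mRNAs without the library total. The shares below are of counts and favour long genes. Over all fish, mt-nd4 had a mean share of 30.3% by count and 16.0% per kilobase of effective length. For mt-nd3 the means were 7.12% and 25.8%. mt-nd4 took 29.1% to 34.4% of their summed counts in 14 fish and 15.2% in scaf1+/+ standard diet replicate C. mt-nd1 took 17.6% to 24.3% in the 14 fish and 5.82% in replicate C, and mt-nd2 took 17.9% to 23.4% and 15.3%. mt-nd3 took 3.91% to 11.3% in the 14 fish, the highest being scaf1-/- double diet replicate 6, and 26.5% in replicate C. mt-nd6 took 5.31% to 9.47% in the 14 fish and 23.4% in replicate C. The order of the 7 genes in that 1 library therefore differed, with mt-nd3 and mt-nd6 first and second by count.

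**Figure D4:**
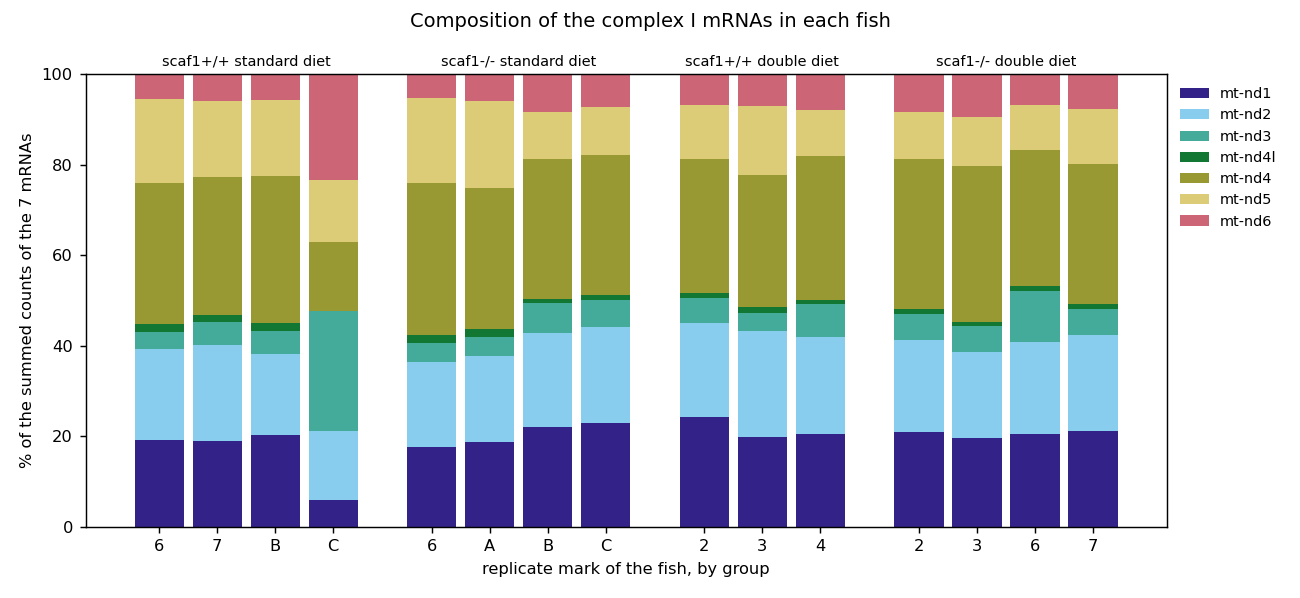
Share (%) of each complex I mRNA in the summed counts of the 7, 1 bar per fish, by group. scaf1+/+ standard diet replicate C stands out with 26.5% mt-nd3 and 23.4% mt-nd6, and the mt-nd5 share is 16.8% to 19.2% in scaf1+/+ replicates 6, 7 and B and scaf1-/- replicates 6 and A of standard diet.

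mt-nd5 and mt-nd6, neighbours on the genome that lie on opposite strands and share 4 bases, gave ratios that differed between fish of 1 group. The count of mt-nd6 for each count of mt-nd5 was 0.295, 0.359 and 0.343 in scaf1+/+ standard diet replicates 6, 7 and B, and 1.72 in replicate C. In scaf1-/- standard diet it was 0.284 and 0.313 in replicates 6 and A and 0.827 and 0.670 in replicates B and C. In scaf1+/+ double diet it was 0.579, 0.470 and 0.760 in replicates 2, 3 and 4, and in scaf1-/- double diet 0.816, 0.881, 0.665 and 0.618 in replicates 2, 3, 6 and 7. Within the scaf1-/- standard diet group, replicates 6 and A thus lay with scaf1+/+ replicates 6, 7 and B, and replicates B and C within the range of the double diet fish. These fish also differed over the whole library. Replicates 6 and A had 35458 and 34020 transcripts with at least 1 count and TMM factors of 1.59 and 1.36. Replicates B and C had 27515 and 27425, with factors of 0.630 and 0.590. Whether the ratios follow that difference was not tested. The ratio was chosen for display after its values were seen and was given no test. The libraries are labelled as directional, but the strand setting of the counting is not given in the sources used here. Without strand, reads from mt-nd6 and from RNA antisense to it cannot be told apart.

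The counts of mt-nd5 and mt-nd4l were also set against mt-nd4, and the first of these ratios shares mt-nd5 with the ratio above. mt-nd5 stood at 0.593, 0.549, 0.519 and 0.897 of the mt-nd4 count in scaf1+/+ standard diet replicates 6, 7, B and C, and at 0.556, 0.620, 0.330 and 0.347 in scaf1-/- standard diet replicates 6, A, B and C. On double diet it was 0.404, 0.521 and 0.325 in scaf1+/+ fish and 0.308, 0.312, 0.336 and 0.397 in scaf1-/- fish. Replicates 6 and A of scaf1-/- standard diet again lay with scaf1+/+ replicates 6, 7 and B, and replicates B and C with most of the double diet fish. mt-nd4l, which shares 7 bases with mt-nd4 and was 0.0513 to 0.0589 of its count in scaf1+/+ replicates 6, 7 and B of standard diet, was 0.0547 and 0.0594 in scaf1-/- replicates 6 and A and 0.0277 and 0.0370 in replicates B and C. In double diet fish it was 0.0278 to 0.0475, and in scaf1+/+ standard diet replicate C 0.0130, the lowest of the 15. The ratio of mt-nd1 to mt-nd2, neighbours on the same strand, was steadier, at 0.851 to 1.18 in 14 fish and 0.382 in replicate C.

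**Figure D5:**
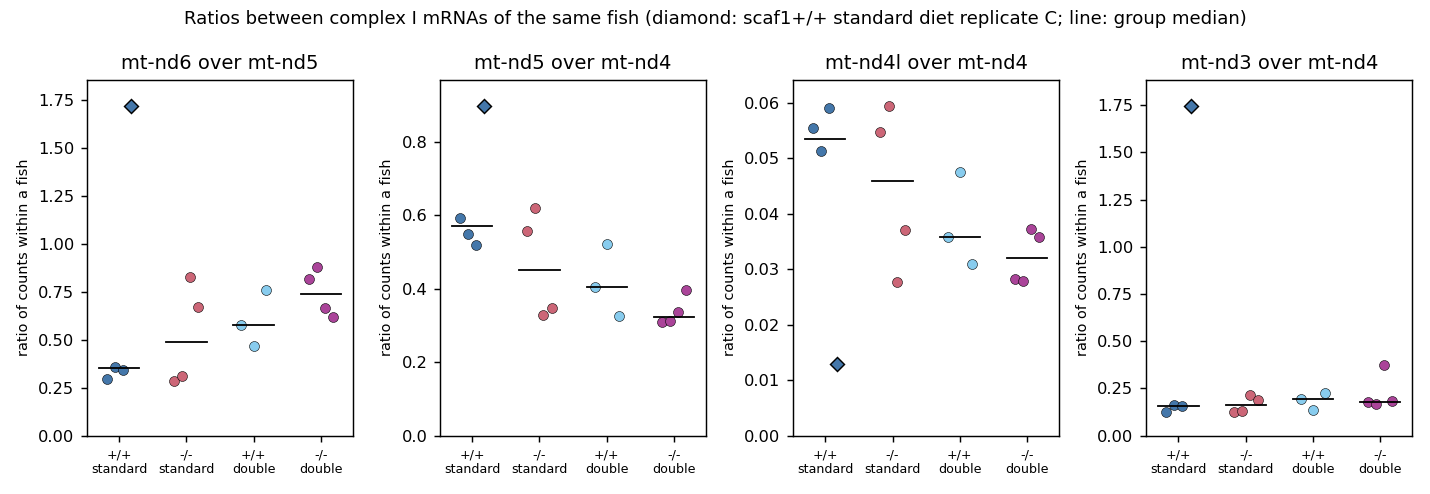
Ratios of counts between complex I mRNAs of the same fish, by group, with a line at the group median. scaf1-/- standard diet fish fall in 2 places in the ratios of mt-nd6 to mt-nd5 (0.284 and 0.313, then 0.670 and 0.827) and of mt-nd5 to mt-nd4, and scaf1+/+ standard diet replicate C (diamond) is highest in the ratios to mt-nd5 and mt-nd4 except that of mt-nd4l, where it is lowest. The same scaf1-/- fish also differ in transcripts with at least 1 count (35458 and 34020, then 27425 and 27515).

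The members followed their own mean level to different degrees. In TMM-scaled values over 15 fish, Spearman's rho with the mean of the 7 was 0.98 for mt-nd2, 0.97 for mt-nd4 and 0.94 for mt-nd6, and 0.67 for mt-nd4l, which was lowest. In CPM without that scaling it was 0.96 for mt-nd2, 0.91 for mt-nd4 and 0.81 for mt-nd6, but 0.67 for mt-nd3, 0.45 for mt-nd5 and 0.40 for mt-nd4l. Each member is a part of that mean. Among 2470 transcripts with at least 10 CPM in every fish, with the other mitochondrial mRNAs left out, those most alike were ENSDART00000060550.6 (rho = 0.99) and ENSDART00000147706.2 (rho = 0.98). Points share the scaling of their library, and the median rho of all candidates was 0.69. In CPM without TMM scaling the median of the candidates was -0.16 and the highest 0.89. No gene name was given to these IDs in the sources used here.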

How the data were processed

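RNA of skeletal muscle from 15 fish, 1 library per fish, was sequenced. Reads were checked with FastQC 0.11.8 and assigned by kallisto 0.45.0 to cDNA of Ensembl release 94. The files deposited by the authors give, for each transcript, an estimated count, a length and an effective length. Sleuth is also listed in the submitters' processing notes. Groups came from the labels.

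Counts were rounded, filtered with filterByExpr (smallest count 10), scaled by TMM and tested in edgeR 4.0.16 (robust quasi-likelihood, 1 coefficient per group, Benjamini-Hochberg over 26970 transcripts), in R 4.3.3. A call needed an adjusted p under 0.05 and a log2 difference over 1. DESeq2 1.42.0, limma 3.58.1 on log2 TPM with a pseudocount of 1 or 0.1, other scalings and filters, a replicate block and leaving out each library were alternatives. The replicate block took a mark as 1 block in all groups. Only marks 6 and 7 occur on both diets, and no mark occurs in scaf1+/+ fish of both diets. Scaling by library totals alone and leaving out scaf1+/+ standard diet replicate C elsewhere were chosen after seeing the data. The fits were tested on simulated data, with changes larger than those fitted for these mRNAs in the comparisons of genotype and of diet. That test therefore does not show how often a change of their size would be called. P-values set a difference against the spread between fish, taken as independent. Diets were given by tank and the labels do not give tanks, so a tank difference cannot be told apart from a diet difference. Whether the genotypes shared tanks is not stated, so the same may hold for a genotype difference. Fish of 1 tank may not be independent.

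The same mark in both genotypes was checked by the correlation of deviations from group means: r = 0.43, 0.12 and 0.39 on standard diet, and -0.10 and -0.17 on double diet. The standard diet values meet the bound of 0.1 set beforehand. Fish of different marks reached r = 0.52, and scaf1-/- replicate B had r = 0.38 with scaf1+/+ replicate C. The check therefore does not show that marks pair the fish.

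Names rest on the IDs and on lengths in RefSeq (GRCz12tu), whose coordinates gave the order of the genes and the bases that neighbours share. All 7 members were named by rule. Of the other transcripts most like their mean that the rule set out to name, only the first 2 are given. Members and lists were chosen with earlier results of these data known. Lists of 67 nuclear genes (other complex I subunits, assembly factors, mitochondrial gene expression) and muscle markers were not used, because 0 transcript IDs matched a gene name table.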

Additional observations from a re-analysis of the deposited data

Results flagged for a closer look

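Of 51 sets of values (each the CPM or the share of the summed counts of 1 mRNA in a group of 4 fish, or a library value), 8 had 1 fish far from the others. Chance would mark about 1 in 20 sets if they were independent and normally distributed. These sets are not independent: the shares of 1 fish depend on each other, and CPM and share use the same counts. The number marked can therefore not be set against that rate. Of the 8, 6 came from scaf1+/+ standard diet replicate C. In that fish mt-nd3 was at 4444 CPM, where the other 3 fish of the group had 375 to 669, and mt-nd6 was at 3930 CPM, where they had 517 to 769. In shares of the summed counts, mt-nd3 was at 26.5% (others 3.96% to 5.02%), mt-nd6 at 23.4% (5.45% to 6.01%), mt-nd1 at 5.82% (18.9% to 20.2%) and mt-nd4 at 15.2% (30.5% to 32.4%). This library also had the fewest counts, 4045429, and its part in these values was not tested. In scaf1-/- double diet replicate 6, mt-nd3 took 11.3% of the summed counts, where the other 3 fish had 5.67% to 5.87%. In scaf1-/- standard diet replicate 6, mt-nd4 took 33.6%, where the others had 30.9% to 31.0%.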

How the results depend on the processing

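No mRNA of the 7 was called in any of the 110 combinations of setting and comparison, and the lowest adjusted p was 0.389 (DESeq2 without scaf1+/+ standard diet replicate C). Of 308 fold changes under other settings that refit or rescale, 270 kept their sign. With 1 library left out, 17 of 224 changed it. The cause was not tested, other than that 2 genes rest on 1 library. With a replicate block 0 of 7 were called in each comparison, and the median for diet in scaf1+/+ fish was -0.10 in place of 0.60, that of the interaction 0.54 in place of -0.28, and that for genotype on double diet 1.11 in place of 0.53. Few marks link the diets in that block, and fish of the same mark on double diet were not alike, so these values are weak as a check.

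The log2 differences that changed sign were these. For genotype on standard diet, mt-nd6 was 0.019 by limma (both pseudocounts) and 0.21 with a replicate block, and DESeq2 without scaf1+/+ standard diet replicate C gave 1.36 for mt-nd3 and 1.44 for mt-nd6. For genotype on double diet, limma (both pseudocounts) gave -0.027 for mt-nd1, -0.069 for mt-nd2, -0.10 for mt-nd4l and -0.15 for mt-nd5, and library totals alone gave -0.067 for mt-nd4l and -0.10 for mt-nd5. For diet in scaf1+/+ fish, the replicate block gave 0.45 for mt-nd3, -0.11 for mt-nd4l and -0.14 for mt-nd4. DESeq2 without replicate C gave 1.09 for mt-nd3, 0.50 for mt-nd5 and 1.26 for mt-nd6. mt-nd5 was 0.015 by library totals alone and 0.039 without a filter, and mt-nd6 was 0.11 by limma. For diet in scaf1-/- fish, mt-nd4l and mt-nd5 were -0.048 and -0.0057 with median-ratio scaling, -0.049 and -0.0061 by DESeq2, -0.046 and -0.0057 by DESeq2 with shrinkage, -0.21 and -0.17 by library totals alone, and -0.40 and -0.39 by limma. mt-nd4l was -0.24 with the replicate block.

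With 1 library left out in turn, genotype on standard diet ran from -1.50 to 1.49 for mt-nd3, -0.029 to 0.78 for mt-nd5 and -1.04 to 1.56 for mt-nd6. On double diet mt-nd4l ran from -0.095 to 0.94 and mt-nd5 from -0.10 to 0.94. For diet in scaf1+/+ fish mt-nd3 ran from -1.77 to 1.12, mt-nd5 from -0.67 to 0.55 and mt-nd6 from -1.24 to 1.30. In scaf1-/- fish mt-nd1 ran from -0.041 to 0.55, mt-nd4l from -0.14 to 0.18 and mt-nd5 from -0.11 to 0.27. Ratios of mean levels moved by less than the spread between fish under other denominators in 56 of 56 cases. Shares within a fish did depend on length: over all fish, mt-nd3 had a mean of 7.12% by count and 25.8% per kilobase of effective length. Gene lists and cell type markers were not run.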
